A study of Neurospora crassa with 34 samples.

Results

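Of the 9730 genes in the count files of this Neurospora crassa series, 39 were listed by the authors as having lost H3K27me2/3, the di- or trimethylated form of lysine 27 in histone H3, in the translocation strain OY337 or in the translocation strain UK2-32. The members were taken from the deposited table of genes that gained or lost the mark, without the genes listed as gained in UK2-32, which removed 15 of the 38 genes listed as lost in OY337. Of the 39 members, 7 were listed for OY337 only, 16 for both strains and 16 for UK2-32 only, so that 23 stood on the OY337 list and 32 on the UK2-32 list. None of them (0 of 39) stood on the gain or loss list of another strain. The choice of members used the methylation call alone, and the results concern their mRNA. The question was whether genes that had lost the mark had other transcript levels than in strains in which they were not listed as changed.

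H3K27me2/3 is placed by Polycomb repressive complex 2, whose catalytic subunit in Neurospora is SET-7, and marks blocks of genes that are in general poorly transcribed. In this fungus much of the mark lies near the chromosome ends, next to the telomere repeats. A translocation that moves a chromosome end, or that puts other DNA between a gene and its chromosome end, changes the distance of a gene from the telomere without changing the gene.

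By the order of genes in the RefSeq annotation of assembly NC12, all 39 members lay on the right arm of linkage group (LG) IV, which holds 1594 genes in all. The outermost member towards the centromere, NCU08818, was gene 217 counted from the right end, and NCU10037 was the last gene of the linkage group. The 7 members listed for OY337 only were the run NCU08818 to NCU08812, with 5 genes, and NCU05179 and NCU05178. The 16 members listed for both strains were NCU08802 to NCU08799, the pair NCU05321 and NCU05320, and 10 genes from NCU05193 to NCU16901. The 16 members listed for UK2-32 only were the neighbours NCU09939 and NCU09937, and 14 genes from NCU05175 to the end of the linkage group. RefSeq gave a gene name to only 1 of the 39 members, NCU09937, named gh76-5, a glycoside hydrolase, of a family whose fungal members act on cell wall mannans. The other 38 carry locus numbers only, and no function is stated for them here. The pairs NCU05190 and NCU05189, NCU05183 and NCU16901, NCU05165 and NCU05164, and NCU05160 and NCU16904 overlap on the chromosome. Whether the counting used strand is not given in the sources used here, so reads of such a pair may have been split between its genes.

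Poly(A) mRNA was sequenced from 8 groups of 2 libraries each, described as biological duplicates, after growth of germinated conidia (asexual spores) for 16 h at 32 °C in sucrose medium. OY337 is mating type A, carries al-2 and T(II->IV)OY337, and has a segment of the right arm of LG II on the right tip of LG IV. The caption of the study's map of UK2-32, AR16 and OY337 gives a sign for chromosome deletions without naming the strain. UK2-32 is mating type A with T(IVR->VL)UK2-32, a segment of the right arm of LG IV that was moved to the left arm of LG V, at or near the ribosomal DNA. The other 5 translocation strains served as the reference: AR16 (mating type a, In(IL->IR)AR16), ALS159 (A, T(IV->VI)ALS159), OY329 (A, T(VI->III)OY329), OY350 (A, T(VIL->IR)OY350) and UK3-41 (A, inl, T(VR)UK3-41). ALS159 is a reference with a limit, since its own translocation moves most of the right arm of LG IV to LG VI. The last group is labelled as OY329 with a deletion of set-7, and its 2 libraries come from 2 isolates. Each translocation strain is 1 isolate, so the rearrangement cannot be told apart from the rest of its genome, and no wild-type library was analysed here.

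Depth was 6435058 to 27994440 reads on genes per library, and a further 5.6 to 27.0% of reads fell on no gene. OY329 replicate 1 was the deepest library and OY329 replicate 3 the shallowest. OY329 replicate 1 and both libraries of the set-7 deletion carried index sequences of 8 bases, and all the others 6 bases. The summed level of 6 conidiation markers was 2501 to 8767 CPM (counts per 1000000 reads on genes) in OY337, 5315 to 16110 CPM in UK3-41, 1376 to 1527 CPM in UK2-32 and 159 to 2080 CPM in the other 4 strains. Different genes made up most of these sums. In OY337 and UK3-41 it was eas (means 4630 and 10300 CPM), and in UK2-32 and OY329 con-8 (1252 and 1509 CPM). Against the reference, 3 of the 6 markers were higher and 0 lower in OY337, and 2 were higher and 1 lower in UK2-32. Of 5 sexual development genes, 4 were tested, of which 1 was higher and 1 lower in UK2-32 and 0 differed in OY337. Whether spore development had a part in the differences of the members was not tested. In such bulk RNA, fewer cells that express a gene and less RNA per cell cannot be told apart.

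The gene that the deletion targets, set-7 (NCU07496), had 255 and 49 reads in the OY329 libraries (9.72 and 9.52 CPM). In the libraries labelled as set-7 deletion it still had 40 and 16 reads (3.47 and 2.00 CPM). The difference was -1.79 on the log2 scale (SE 0.26, edgeR quasi-likelihood test, Benjamini-Hochberg adjusted p = 0.00360). Its level was 8.88 CPM or higher in all 14 other libraries. The labelled libraries were thus the lowest but not without reads, and whether those reads lay outside the deleted part was not tested.

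Many of the members were almost silent in every strain. For 16 of the 39, reads were too few for the test, with at most 25 reads in all 16 libraries together, and 11 had 10 reads or fewer. NCU05320 and NCU05178 had no read in any library. The other 23 members passed the filter on low counts: 3 listed for OY337 only, 8 listed for both strains and 12 listed for UK2-32 only. Of these, NCU08802 passed only through UK2-32 and NCU08818 and NCU08814 only through UK3-41. NCU10037 passed through UK2-32 alone among the 7 translocation strains, and also through the set-7 deletion. These 4 therefore had to differ between groups once they were tested. In the map of levels by library, the OY337 columns are empty at the right end of the linkage group, and only the UK2-32 columns show reads for the run from NCU08801 to NCU08799, apart from single reads.

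**Figure D1:**
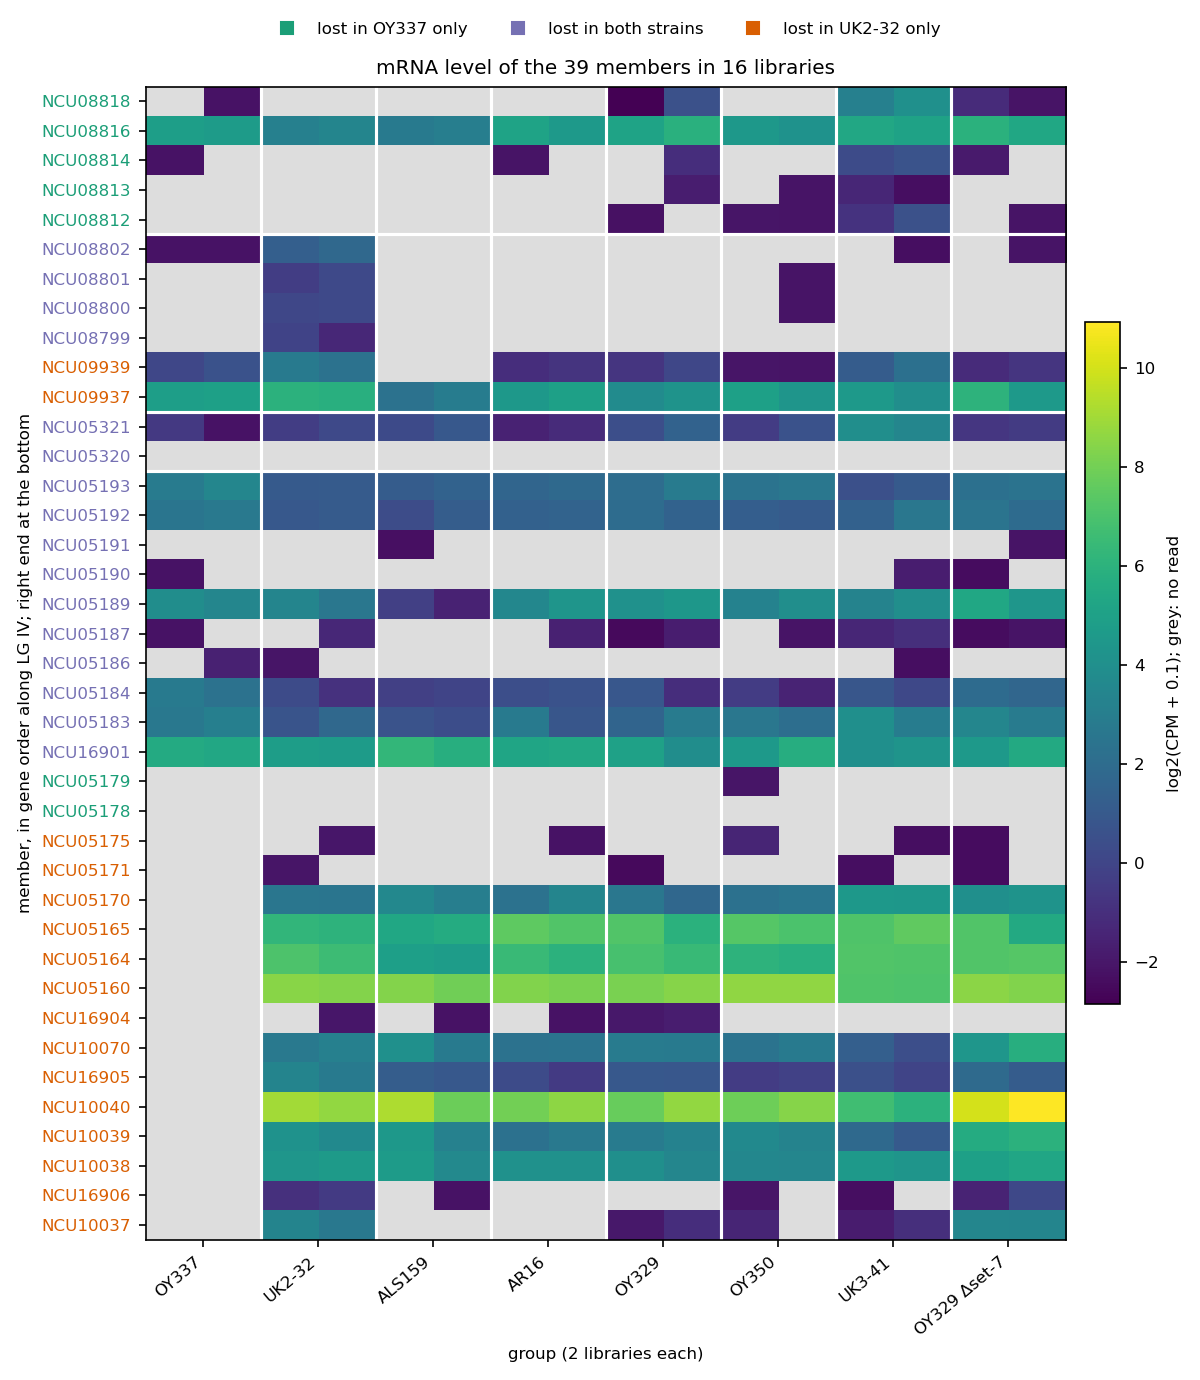
Level of each of the 39 members (lines, in chromosome order towards the right end of LG IV) in each of the 16 libraries (columns), as a colour scale of log2 CPM. The last 14 members have no read in either OY337 library, and 16 members were too low for the test.

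In OY337, 3 of the 23 members on its own list had higher mRNA than the mean of the 5 reference strains, and they lay close together at NCU05193, NCU05192 and NCU05184, while NCU05321 was lower. Of these 23 members, 11 were tested. Over all 8170 genes tested, 11.6% were higher and 5.84% lower in OY337 (17.5% in either direction). NCU08818, NCU08814 and NCU08802 were tested only through another strain, and without them the median log2 difference of the other 8 was 0.75, against -0.01 over all genes. The comparisons of OY337 and of UK2-32 use the same 10 reference libraries, so they are not independent of each other.

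NCU05184 had 6.79 and 4.99 CPM in the OY337 libraries. In the 10 reference libraries it ran from 0.256 to 1.75 CPM with a median of 0.924 CPM, and in UK2-32 it had 1.11 and 0.442 CPM. Both OY337 libraries thus lay above all the reference and UK2-32 libraries, and above the 3.73 and 3.12 CPM of the set-7 deletion. The log2 difference from the reference was 2.58 (SE 0.36, edgeR quasi-likelihood test, adjusted p = 0.00156), and it passed the threshold under all alternatives.

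NCU05193 had 7.37 and 11.2 CPM in OY337. The reference ran from 1.31 to 7.19 CPM with a median of 3.27 CPM, and UK2-32 had 1.94 and 2.06 CPM. The groups did not overlap, but the lower OY337 library was close to OY329 replicate 3, the highest of the reference. The log2 difference was 1.49 (SE 0.24, edgeR adjusted p = 0.00319), and without OY337 replicate 2 it was 1.16 and missed the threshold (adjusted p = 0.0872).

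NCU05192, the next gene along, had 5.62 and 6.54 CPM in OY337. The reference ran from 1.17 to 6.004 CPM with a median of 2.62 CPM, and UK2-32 had 1.80 and 2.06 CPM. One UK3-41 library fell within the OY337 values, and the other 9 reference libraries were lower. The log2 difference was 1.16 (SE 0.29, edgeR adjusted p = 0.0219). The call did not hold without OY337 replicate 1 (adjusted p = 0.138), without replicate 2 (0.191) or without ALS159 in the reference (0.056).

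NCU05321 was the member of the OY337 list that was lower. It had 0.585 and 0.119 CPM in OY337 and 0.25 to 15.2 CPM in the reference, with a median of 1.33 CPM. The OY337 values overlapped with those of AR16, and the highest reference values, 15.2 and 10.8 CPM, were those of UK3-41. The log2 difference of -2.14 (SE 0.61, edgeR adjusted p = 0.0361) became -1.39 (adjusted p = 0.194) without UK3-41, and the call was also lost on leaving out either library of OY337 or UK2-32, replicate 2 of ALS159, AR16 or OY350, or replicate 1 of UK3-41 (adjusted p from 0.0511 to 0.27).

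The remaining 7 tested members of the OY337 list did not pass. NCU08816 had 29.0 and 25.9 CPM in OY337 against a reference median of 28.9 CPM, within the reference range. NCU05189 (0.77), NCU05183 (0.74) and NCU16901 (0.41) had log2 differences above 0 with adjusted p of 0.117, 0.290 and 0.339. NCU08802 had 1 read in each OY337 library and 1 read in the 10 reference libraries together. Both OY337 libraries were above all 10 reference libraries for 3 members, NCU08802, NCU05193 and NCU05184, and the same held for 3.65% of all genes tested. Without the members tested through 1 strain only, this was 2 of 19.

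**Figure D2:**
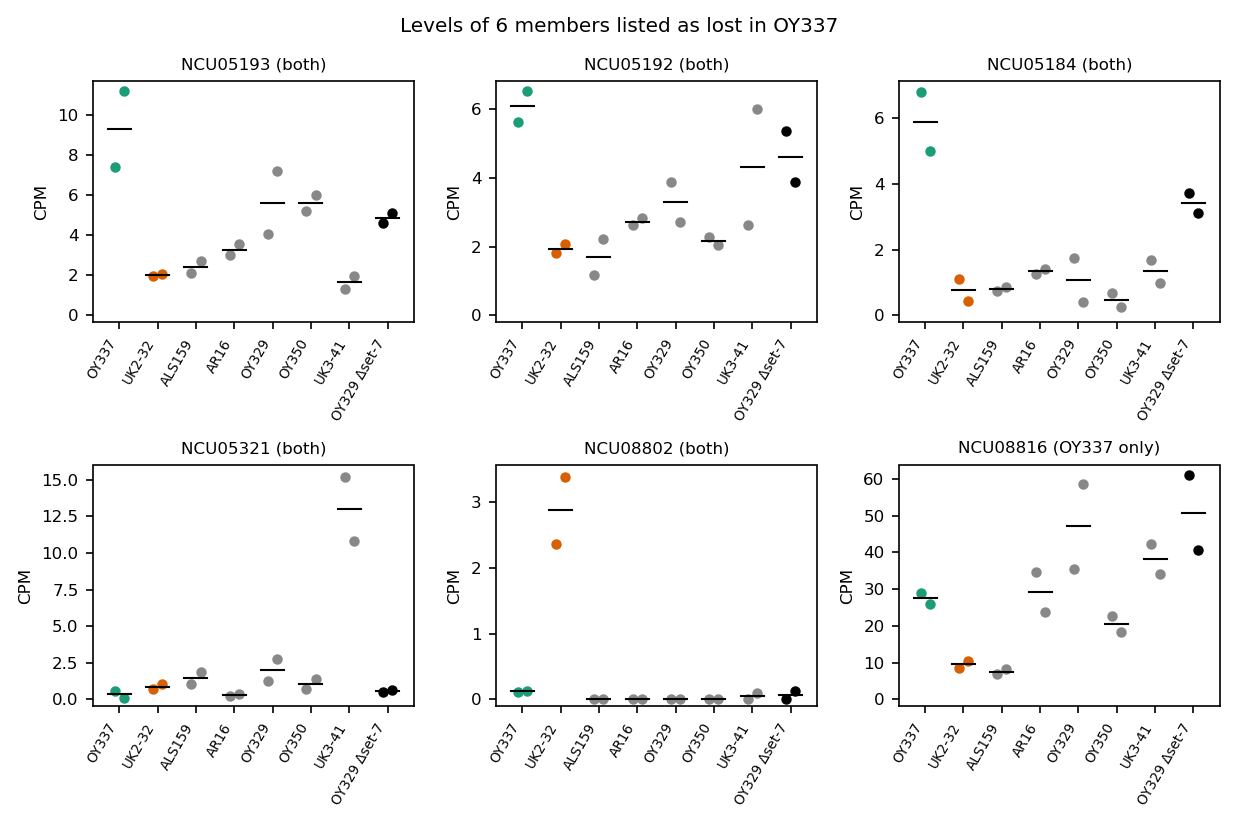
Level in CPM (vertical axis) of NCU05193, NCU05192, NCU05184, NCU05321, NCU08802 and NCU08816 in each library of the 8 groups (points, with group means as bars). NCU05193 and NCU05184 are highest in OY337, NCU05321 in UK3-41 and NCU08802 in UK2-32.

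OY337 also differed in members that were not on its list. From NCU05175 to the end of LG IV no read was found in either OY337 library for any of the 23 gene models considered, all of which had reads in other libraries. Over the genome, 14 of the genes considered had no OY337 read and at least 1 CPM in all 14 other libraries. All 14 were in this stretch, 8 of them members. Of the 14 members there, all listed for UK2-32 only, 9 passed the test as lower, from NCU05170 to NCU10038. These 9 lay below all 10 reference libraries, as did 3.83% of all genes tested. NCU05160 had 28242 reads in the reference libraries together, which put OY337 at least 1572-fold lower, with the 0 reads of the group set at a floor of 3 counts. At the other end, NCU16905 had 140 reads in the reference and was at least 7.79-fold lower. Beside the members, 7 of the 9 other genes of the stretch were tested, and all 7 were lower in OY337. The deposited values do not tell a stretch missing from the OY337 genome from one that is not transcribed.

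In contrast, OY337 had reads further inward, the nearest at NCU05180 (334 reads), and 2 members listed for UK2-32 only were higher there. The genes between, NCU05176 to NCU05179, had no OY337 read either, and NCU05178 and NCU05179 are on the OY337 list. NCU05177 and NCU05178 had no read in any library, and NCU05179 had 1 read, in OY350. NCU05176 also had none in UK2-32 and UK3-41. The edge at NCU05175 is where the run on the UK2-32 list begins, and the counts do not fix it. NCU09939 had 0.936 and 1.43 CPM in OY337 against a reference median of 0.423 CPM (range 0 to 4.53 CPM). Its OY337 values lay within the reference range, and its log2 difference was 2.09 (SE 0.53, edgeR adjusted p = 0.0251). gh76-5 (NCU09937) had 28.8 and 31.7 CPM against a reference median of 19.3 CPM (range 4.90 to 31.7 CPM), a log2 difference of 0.84 (SE 0.22, adjusted p = 0.0277). Both calls were lost without ALS159 in the reference (adjusted p = 0.190 and 0.199) and without either OY337 library.

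In UK2-32, 7 of the 32 members on its own list were higher than the mean of the 5 reference strains and 0 were lower. Over all genes tested, 19.4% were higher and 15.1% lower (34.6% in either direction). Of the 32 members, 20 were tested. NCU08802 and NCU10037 were tested only through UK2-32 itself, which fixed their calls. Without them 5 of 18 were higher, with a median log2 difference of 0.22 against 0.01 over all genes. The count of 0 lower is by edgeR. At an unadjusted p below 0.05 it was 2, and DESeq2 called 1. The 7 higher members were NCU08802, the neighbours NCU09939 and gh76-5, and NCU05164, NCU16905, NCU10039 and NCU10037 near the chromosome end. Genes that are no members rose there as well. From NCU05175 to the right end, 3 of their 7 tested were higher and 0 lower by edgeR, against 4 and 0 of 10 tested members. Between NCU05193 and NCU05176, 2 of the 4 tested other genes were higher and 0 lower.

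The run from NCU08802 to NCU08799 had reads in UK2-32 and almost none elsewhere. NCU08802 had 17 and 23 reads in UK2-32 (2.36 and 3.39 CPM), 1 read in all 10 reference libraries, and 1 read in each OY337 library. The ratio to the reference was 290, with an exact 95% interval of 49.2 to 11740 that covers counting error only. NCU08801 had 5 and 7 reads in UK2-32, NCU08800 had 7 and 7, and NCU08799 had 6 and 2, while each had at most 1 read in the reference and none in OY337. Their ratios to the reference were 87.1 (12.9 to 3721) for NCU08801 and 102 (15.4 to 4295) for NCU08800, and at least 19.3 for NCU08799. These 3 genes had too few reads for the test. All 4 genes are listed for both strains.

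NCU09939 had 6.80 and 5.01 CPM in UK2-32. The reference ran from 0 to 4.53 CPM with a median of 0.423 CPM, and the highest 2 of its libraries were those of UK3-41. The UK2-32 libraries lay above all the others, by a small gap from UK3-41. The log2 difference was 4.40 (SE 0.39, edgeR adjusted p = 0.000164). Its size depends on the reference, in which ALS159 had no read and so lowers the mean on the log scale. The mean levels were 5.90 CPM in UK2-32 and 0.925 CPM in the reference, and the alternatives gave differences of 3.29 to 5.29.

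gh76-5 (NCU09937) had 63.4 and 56.4 CPM in UK2-32, above the reference range of 4.90 to 31.7 CPM and the 2 OY337 libraries. The log2 difference was 1.83 (SE 0.21, edgeR adjusted p = 0.000317). One library of the set-7 deletion was still higher, at 66.5 CPM, while the other had 24.0 CPM.

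At the right end, NCU10037 had 9.99 and 6.33 CPM in UK2-32. The reference ran from 0 to 0.394 CPM and OY337 had no read. Only the set-7 deletion, at 10.8 and 10.6 CPM, was as high. UK2-32 had 115 reads and the 10 reference libraries 14 reads together. The fitted difference is not used, since the gene was tested among these strains only through UK2-32.

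NCU16905 had 10.3 and 6.63 CPM in UK2-32 and 0.590 to 2.24 CPM in the reference, with a median of 1.22 CPM. Here the set-7 deletion, at 3.64 and 2.12 CPM, was below UK2-32. The log2 difference was 2.81 (SE 0.25, edgeR adjusted p = 0.000160).

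The other right-end calls were smaller, and their groups overlapped. NCU10039 had 18.1 and 12.7 CPM in UK2-32 and 1.97 to 22.6 CPM in the reference, a log2 difference of 1.05 (SE 0.31, edgeR adjusted p = 0.0282). NCU05164 had 136 and 94.97 CPM against 27.3 to 148 CPM, a difference of 0.66 (SE 0.17, adjusted p = 0.0153). NCU10039 was lost without UK3-41 in the reference (adjusted p = 0.145) and without either UK2-32 library, and NCU05164 without ALS159 (0.189) or without UK2-32 replicate 1 (0.268). NCU05160 (0.34), NCU10070 (0.49), NCU10038 (0.51) and NCU10040 (0.90) had log2 differences above 0 that did not pass, and NCU05170 (-0.56) and NCU05165 (-0.68) below 0.

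Both UK2-32 libraries lay above all 10 reference libraries for 9 of the 39 members, among them 5 of the 23 tested, or 3 of 19 without the members tested through 1 strain only, and over all genes tested for 5.91%. They lay below all 10 for 0 of the 23 tested, against 6.81%. The 9 were NCU08802 to NCU08799, NCU09939, gh76-5, NCU16905, NCU10037 and NCU16906, the last with 3 and 4 reads in UK2-32. The 10 members from NCU05193 to NCU16901, also listed as lost in UK2-32, took no part in this. Of the 7 tested members listed for both strains other than NCU08802, 1 was above 0 in UK2-32, and their median was -0.49. Of the genes not on the UK2-32 list, NCU08816 was lower in UK2-32, with 8.61 and 10.5 CPM against a reference median of 28.9 CPM, a log2 difference of -1.33 (SE 0.24, edgeR adjusted p = 0.00264). The 2 ALS159 libraries, with 6.82 and 8.15 CPM, lay below those of UK2-32.

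**Figure D3:**
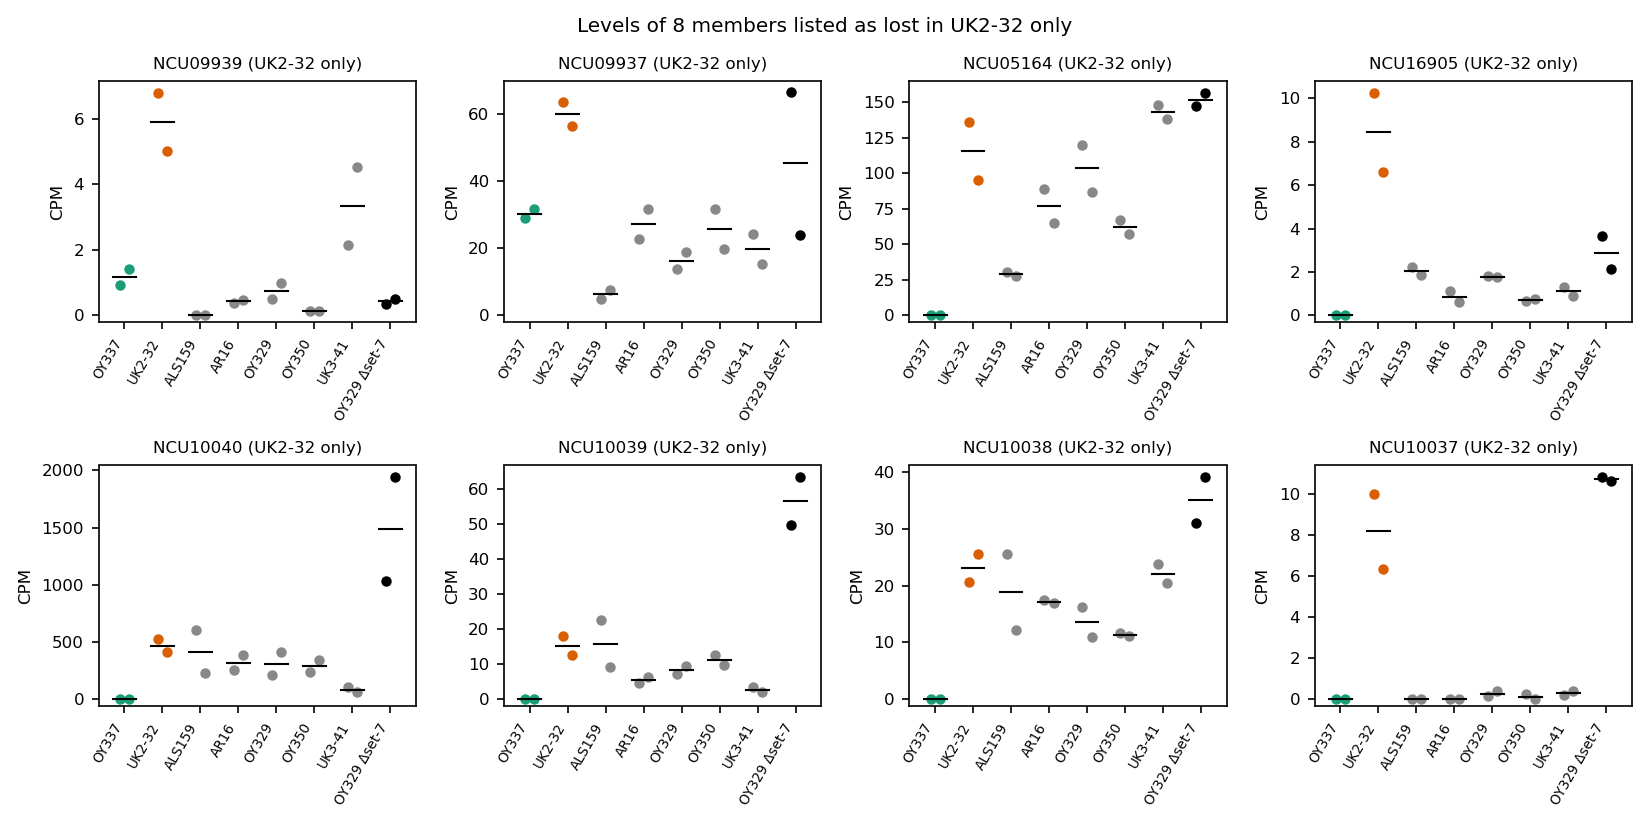
Level in CPM (vertical axis) of NCU09939, NCU09937, NCU05164, NCU16905, NCU10040, NCU10039, NCU10038 and NCU10037 in each library of the 8 groups (points, with group means as bars). OY337 is at 0 for the last 6 of these, UK2-32 is highest for NCU09939 and NCU16905, and the set-7 deletion is highest for NCU10040, NCU10039 and NCU10038.

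The members listed as lost in both strains could be compared directly. OY337 was higher than UK2-32 for NCU05184 (log2 difference 2.89, SE 0.59, edgeR adjusted p = 0.0208) and NCU05193 (2.20, SE 0.37, adjusted p = 0.00756). The other 4 tested members between NCU05193 and NCU16901 did not pass (adjusted p = 0.0626 for NCU05192, 0.442 for NCU05189, 0.237 for NCU05183 and 0.333 for NCU16901). Their neighbour NCU05188, which is no member, was lower in OY337 than in UK2-32 (-1.54, adjusted p = 0.00697). Against the reference, NCU05188 was higher in UK2-32 (1.16, edgeR adjusted p = 0.00128) and did not pass in OY337 (-0.38, adjusted p = 0.216). NCU08802, on the same 2 lists, had 17 and 23 reads in UK2-32 and 1 and 1 in OY337, a ratio of 24.2 (exact 95% interval 6.28 to 207, counting error only). It could be tested only through its UK2-32 reads, so its fitted difference is not used. Among all 39 members 3 were higher in OY337 than in UK2-32, the third being NCU08816 (1.53, SE 0.29, adjusted p = 0.0135), and 12 were lower, against 2.28% and 2.15% of all genes (4.43% in either direction). Without NCU08802 and NCU10037, which passed the filter through UK2-32, 10 were lower. Of these, 9 lay in the stretch without OY337 reads, and the other was NCU09939 (-2.31, SE 0.47, adjusted p = 0.0236). Leaving out 1 library of either strain ended the calls of NCU05184, NCU08816 and NCU09939 in every case, and that of NCU05193 except without OY337 replicate 1. The lone library was then assumed to vary like the other groups.

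The deletion of the methyltransferase gene itself was compared in the OY329 background. Replicates differed most in these 2 groups, with a chi-square per gene between libraries of 198 in OY329 and 129 in the deletion. In the other groups it was 12 to 76.1, and it also grows with depth. The fit takes its spread from all groups together, so its p-values may be too small here. In the libraries labelled as set-7 deletion, 6 of the 23 tested members were higher than in OY329 and 0 lower, against 4.84% and 2.7% of the 8223 genes tested (7.54% in either direction). The 6 all lay at the right end and were listed for UK2-32 only. Without the members tested through 1 translocation strain only, among them NCU10037, 5 of 19 were higher. The count of 0 lower is by edgeR. At an unadjusted p below 0.05 it was 1, and DESeq2 called 0. The median log2 difference was 0.68 for the 23 tested members and 1.58 for the 10 tested members of the right-end run, against 0.02 over all genes. The rise was not confined to members. NCU05168 in the right-end stretch (1.54, edgeR adjusted p = 0.0415) and NCU05182 inward of it (1.08, adjusted p = 0.0128) were also higher. With genes that entered the fit through the deletion counted, 3 of 9 tested other genes in the stretch were higher. Between NCU05193 and NCU05176 this was 2 of 5, and 0 were lower in either part.

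NCU10037 had 10.8 and 10.6 CPM in the set-7 deletion and 0.152 and 0.389 CPM in OY329, a log2 difference of 5.63 (SE 0.66, edgeR adjusted p = 0.00296). NCU10039 had 49.8 and 63.6 CPM against 7.24 and 9.52 CPM, a difference of 2.78 (SE 0.42, adjusted p = 0.00464). For both genes the deletion libraries lay far above OY329, and these 2 calls also held with only the 4 libraries of the comparison in the fit. In that fit NCU10037, with 4 and 2 reads in OY329, could be tested only through the deletion libraries. Its call there was thus fixed by the filter and adds no support.

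NCU10040 had 1035 and 1946 CPM in the set-7 deletion and 211 and 411 CPM in OY329, a log2 difference of 2.26 (SE 0.52, edgeR adjusted p = 0.0278). NCU10070 had 21.0 and 54.4 CPM against 7.17 and 6.61 CPM, a difference of 2.44 (SE 0.50, adjusted p = 0.0167). For both genes replicate 2 of the deletion was the higher, and the groups did not overlap. Without it NCU10040 and NCU10070 missed the threshold (adjusted p = 0.0923 and 0.0662).

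NCU05170 had 15.9 and 18.8 CPM in the set-7 deletion and 6.02 and 3.30 CPM in OY329, a log2 difference of 1.82 (SE 0.37, edgeR adjusted p = 0.0157). NCU10038 had 31.0 and 39.2 CPM against 16.2 and 10.9 CPM, a difference of 1.34 (SE 0.32, adjusted p = 0.0313). Against OY329 replicate 1 alone, the library with the same index length, 5 members were called and NCU10038 had an adjusted p of 0.0855. Without OY329 replicate 1, 3 members were called, NCU10040, NCU10070 and NCU10038 being lost, and with only the 4 libraries 2 were.

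Both deletion libraries were above all 14 other libraries for NCU10070, NCU10040, NCU10039, NCU10038 and NCU10037, 5 of the 23 tested members, against 3.23% of all genes. Without the members tested through 1 translocation strain only, this was 4 of 19. For 10 of the 23, or 9 of the 19, the deletion libraries were above both OY329 libraries, against 22.7%. None of the 11 tested members of the OY337 list passed by edgeR (0 of 11). At an unadjusted p below 0.05, 1 was higher and 1 lower, and DESeq2 called 0. NCU05184, for example, had 3.73 and 3.12 CPM against 1.75 and 0.389 CPM, a log2 difference of 1.41 (SE 0.53, edgeR adjusted p = 0.120), and NCU05321 had 0.520 and 0.624 CPM against 1.26 and 2.72 CPM, a difference of -1.64 (SE 0.61, adjusted p = 0.116). The run NCU08802 to NCU08799 had 1 read in the 2 deletion libraries together.

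The members also varied among the strains in which they were not listed as changed. Each of the 5 reference strains was set against the mean of the other 4. UK3-41 had the most calls, with 11 members higher and 6 lower, against 27.3% and 24.3% of all genes (51.6% in either direction). NCU08818 and NCU08814, tested only through UK3-41, are among the 11, and without them 9 of 19 were higher. ALS159 had 4 higher and 7 lower (23.3% and 23.3% of genes, 46.6% in all), OY329 had 4 and 1 (30.5% and 26%, 56.5% in all), AR16 had 2 and 1 (5.73% and 3.1%, 8.82% in all) and OY350 had 2 and 0 (7.77% and 2.86%, 10.6% in all). For the 0 lower in OY350 by edgeR, 3 were lower at an unadjusted p below 0.05 and DESeq2 called 0.

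In the run listed for OY337 only, NCU08818, NCU08814 and NCU08812 were highest in UK3-41. NCU08818 had 94 and 168 reads there (8.78 and 16.5 CPM), 8 reads in the 8 libraries of the other reference strains and 1 read in the OY337 libraries. The ratio of the whole reference to OY337 was 45.1 (exact 95% interval 8.03 to 1788, counting error only), and it rests on UK3-41. NCU08814 had 1.12 and 1.48 CPM and NCU08812 had 0.467 and 1.38 CPM in UK3-41. NCU05321, with 15.2 and 10.8 CPM, and NCU05170, with 22.3 and 21.4 CPM, were also above all 14 other libraries in UK3-41. Both UK3-41 libraries were above the 8 libraries of the other reference strains for 7 of the 23 tested members, or 5 of 19 without those tested through 1 strain only, against 15.7% of all genes. UK3-41 was also the strain with the highest summed conidiation markers, a sum that came mostly from eas (mean 10300 CPM). Among the 7 translocation strains it was highest for eas, con-13 and fl, but not for con-6, con-8 and con-10. The part of conidiation in these levels was not tested.

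In ALS159, NCU05189 was far lower than in the other 4 strains, with 7 and 2 reads against 70 to 447, a log2 difference of -4.82 (SE 0.53, edgeR adjusted p = 9.90e-05). NCU09939 had no read in ALS159. NCU16901, which overlaps NCU05183, was higher there, by 1.20 (SE 0.27, adjusted p = 0.00557).

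The deposited lists of DNA breakpoint calls, made from 1 ChIP input library of each of 9 isolates, bear on the same chromosome arm. Read pairs and split reads were counted as separate calls, so a junction with both kinds of evidence counts more than 1 time. OY337 had 55 calls with an end on LG IV, of which 10 were found in no other isolate within 1000 bp. Of these, 3 joined LG II and LG IV, from 1993319 to 5858553 with 5 read pairs, from 2232667 to 4388260 with 4 and from 3912584 to 1897597 with 7. The first lay 141511 bp from the highest LG IV position in any call. UK2-32 had 73 such calls, 39 of them in no other isolate. Of these, 4 joined LG IV and LG V, from 5949382 to 3202219 with 11 read pairs, from 3262408 to 3202274 with 12, from 5326897 to 1123479 with 6 and from 4035901 to 5708024 with 4. None of these calls is taken here as the breakpoint of a translocation, and the study's strain table gives no detected breakpoint for either strain. The positions are those of the authors' corrected assembly, and they were not placed among the members because the gene order used here is that of another build.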

How the data were processed

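mRNA was measured in 16 libraries of 8 groups, 2 libraries each, grouped by their labels. The authors deposited raw counts, 1 value per gene and library. The submitters' processing notes name TopHat, SAMtools, HTSeq, DESeq, Bowtie2 and BWA, with no roles. Versions and strandedness are not given in the sources used here. Reads on no gene were left out. The breakpoint lists, as deposited by the authors, hold LUMPY calls with a score and supporting reads, 1 library per isolate, on a corrected NC12 assembly. From the gain and loss table only gene, strain and call were used. Its 5 columns of values, with the authors' expression levels and comparisons, were not used (1 of them holds a value per sample).

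Counts were tested in R 4.3.3 with edgeR 4.0.16 (filterByExpr, TMM scaling, quasi-likelihood fit, Benjamini-Hochberg adjustment over all genes tested, threshold 0.05, prior count 2). The 7 translocation strains were fitted together on 14 libraries, and the set-7 deletion against OY329 on all 16. Each loss strain was compared with the mean of 5 reference strains, which leaves out the other loss strain. CPM are reads per 1000000 reads on genes after TMM scaling. The fits were tested on simulated data. Alternatives were DESeq2 1.42.0, other scaling and filters, a replicate block, other references and leaving out each library.

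The members, subgroups, marker lists and comparisons were chosen with earlier results of these data known. Named genes were members that passed the test in a comparison, members with reads in 1 group and almost none elsewhere, and the overlapping pairs. Of the marker genes, eed, suz12 and epr-1 were not matched by symbol. RefSeq matched 9729 of 9730 gene identifiers.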

Additional observations from a re-analysis of the deposited data

Results flagged for a closer look

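For 2 members listed as having lost H3K27me2/3 in both strains, the effect in OY337 differed from the effect in UK2-32 by a direct test of the 2 strains. NCU05184 was higher in OY337 by 2.89 on the log2 scale and NCU05193 by 2.20. No cause was tested for these differences.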

How the results depend on the processing

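Of 61 results for single members, 34 passed the threshold under every alternative that tested them and 0 changed direction. They are the calls for OY337, UK2-32, OY337 against UK2-32, the set-7 deletion and UK3-41, without those of the other reference strains. Among them are calls that the filter fixed, such as NCU08802 and NCU10037 in UK2-32. Of the 34, 10 are for OY337, and all of these but NCU05184 are right-end genes without an OY337 read. The 10 for OY337 against UK2-32 are all such genes, so these 2 sets rest largely on the same 0 counts. With the mean of all other 6 strains as reference, which includes the OY337 libraries without right-end reads, UK2-32 had 14 calls in place of 8, of which 12 higher and 1 lower were on its own list, and OY337 had 0 members of its list lower in place of 1, as it also had without UK3-41 in the reference (0). Without a filter on low counts UK2-32 had 11 higher members of its list in place of 7, and the lower ones were 1 with DESeq2 and 1 without ALS159 in the reference, an alternative chosen after seeing the data. The set-7 deletion had 2 calls in place of 6 with only its 4 libraries fitted, all 2 higher. NCU10037, among them, was tested there only through the deletion libraries. Over all genes, OY337 had 1427 calls, but 897 against all other 6 strains, 783 without UK3-41 and 2438 without OY329. OY337 against UK2-32 had 362, but 617 with DESeq2, and the set-7 deletion 620, but 1023 with DESeq2 and 17 with only 4 libraries. Leaving out 1 of its own libraries left OY337 with 218 or 290 calls over all genes, UK2-32 with 929 or 948 in place of 2823, and OY337 against UK2-32 with 104 to 148, so the shares of all genes called fall with them. Without 1 OY329 library OY337 against UK2-32 had 695 or 681, and the set-7 deletion had 367 without OY329 replicate 1 and 407 or 406 without 1 OY337 library. Causes were not tested.

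Leaving out 1 library at a time gave 10 to 15 calls for OY337 (own list 1 to 3 higher, 0 to 1 lower), 6 to 11 for UK2-32 (5 to 10 higher, 0 to 2 lower), 10 to 16 for OY337 against UK2-32 (0 to 4 higher, 10 to 12 lower), 3 to 6 for the set-7 deletion (3 to 6 higher, 0 lower) and 30 to 43 for the other strains. With the replicate block the calls were 15 for OY337, 12 for UK2-32 (2 of its list lower), 16 for OY337 against UK2-32 (655 over all genes) and 37 for the other strains. Over all genes the replicate block gave 2070 calls for OY337 and 3463 for UK2-32, in place of 1427 and 2823. The differences between replicates 1 and 2 were correlated between strains over 15 pairs of strains. The correlation ran from -0.26 to 0.39, with a median of -0.002, and was over 0.1 in 3 pairs. Whether same-numbered libraries of some strains share a batch was not tested. The 16 members without a test had at most 25 reads each in all libraries together.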

Other observations

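Beside the members, 3 neighbouring genes that stand on neither loss list behaved alike in their counts. NCU05176, NCU05173 and NCU05172 had 0 reads in OY337, UK2-32 and UK3-41. NCU05173 and NCU05172 lie in the stretch where OY337 has no read for any gene considered. In the libraries labelled as set-7 deletion they had 22 and 23, 134 and 127, and 53 and 57 reads. In OY329 they had 10 and 2, 5 and 0, and 5 and 0 reads. Summed over 2 libraries, NCU05176 had 11 reads in ALS159, 11 in AR16 and 9 in OY350, NCU05173 had 0, 2 and 5, and NCU05172 had 2, 2 and 4. No test is given, because the genes were too low for the fit on the 7 translocation strains and entered the other fit through the set-7 deletion. The choice of these genes followed a look at their values. A deletion call on LG IV, from 5930576 to 5937312 (6736 bp) on the corrected assembly, was found in UK2-32 with 13 read pairs and 8 split reads and in UK3-41 with 15 and 9, and in no other isolate. Which genes lie within it was not worked out.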
